A study of Homo sapiens with 2 samples.

Results

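The transcripts described here encode translation initiation factors, and they were followed through their poly(A) tails and read numbers in cells whose poly(A)-binding proteins had been replaced. Sites were taken where a deposited poly(A) site, the position at which a transcript ends and its tail begins, fell inside the hg19 window of EIF4A1, EIF4A2, EIF3A, EIF4G2, EIF5A, EIF3E, EIF1 or EIF4G1 in the tables of both libraries. This gave 9 sites in 7 of the 8 windows, of 8890 sites present in both tables. The EIF4A1 window held no site, so EIF4A1 was not analysed here. EIF1 and EIF3A had 2 sites each and the other genes 1. The gene names rest on position only, since the tables name a site by its coordinates.

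Tail lengths came from nanopore sequencing of the RNA itself, with no copying into cDNA, in HCT116, a human colon cancer cell line. In all groups the endogenous PABPC1 and PABPC4 carried a degron tag (mAID), and the cells held a multi-copy Sleeping Beauty transposon with a transgene for either PABPC1 or PABP1212, a PABPC1 with the domains RRM1 and RRM2 duplicated. Replacement was driven over 13 days with the auxin IAA (indole-3-acetic acid, 0.5 mM), which removes the tagged proteins, and with doxycycline (1 μg/mL), and cells were sorted by transgene expression into 4 gates of 25% each, called here lowest, second-lowest, second-highest and highest level. An uninduced, unsorted subsample (tagged endogenous proteins present, same transposon) accompanied each transgene. The lines were polyclonal. There were 2 libraries, 1 per transgene, with 5 subsamples each and no repeated subsample, so the transgene cannot be told apart from the library. Uninduced cells differed from sorted cells in doxycycline, IAA, sorting and barcodes together. Fewer transcripts in a cell and fewer cells holding them cannot be told apart in such bulk samples.

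Initiation factors bring the small ribosomal subunit to an mRNA and place it at the start codon. EIF4G1 is the scaffold of the cap-binding complex, and besides the helicase EIF4A2 and the complex eIF3 it binds the poly(A)-binding protein, which links the tail to the cap. EIF4G2 is a related scaffold that lacks the binding sites for the cap-binding protein EIF4E and for the poly(A)-binding protein. EIF3A and EIF3E are subunits of eIF3, EIF1 guards the choice of the start codon, and EIF5A, named for initiation, carries the amino acid hypusine and acts in elongation and termination. The poly(A)-binding proteins coat the tail, and they are known both to protect it and to take part in its shortening.

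The tails studied here start right after the 3′ end of the transcript, so the last 30 bases of annotated transcripts are shown, from GENCODE version 29 on GRCh38, with the poly(A) signal in capitals. For EIF1 the ends are those whose spacing came closest to that of the deposited sites (647 against 642 nt), and for the other genes they belong to the longest protein-coding transcript.
EIF1-204: ctccttcatgcAATAAActgaaaagagcca
EIF1-202: ttatttaAATAAAacttgttttcagaaata
EIF4A2-201: ttaAATAAAttgtatattcactttaaaggt
EIF3A-201: ttggtttAATAAAtcaaatctatgacaaaa
EIF4G2-208: ctatcAATAAAcattgtgatacttgatgta
EIF5A-202: acctgAATAAAactacaagtttaatatgaa
EIF4G1-201: aattATTAAAcatgaattcaattaagctca
The signal is AATAAA in these transcripts except EIF4G1-201, which has the common variant ATTAAA. It starts 19 bases before the end in EIF1-204, the shorter EIF1 end, and 23 bases before it in EIF1-202, the longer one. The annotation types EIF1-204 as a processed transcript and EIF1-202 as a retained intron, and the other 5 as protein-coding. The distance between the EIF4G1 and EIF4A2 sites, which lie on the same chromosome, was 2454545 nt, and that between the 2 annotated ends 2454542 nt.

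The positions that follow are those of the deposited tables on hg19. EIF5A (chromosome 17, 7215782, plus strand) had 5225 reads over the 10 subsamples. The upstream EIF1 site (chromosome 17, 39847254, plus strand) had 2230 reads and the downstream one (39847896) 1416. EIF4G2 (chromosome 11, 10818574, minus strand) had 2396 reads and EIF3E (chromosome 8, 109213961, minus strand) 2029. EIF4A2 (chromosome 3, 186507686, plus strand) had 918 reads, EIF4G1 (chromosome 3, 184053141, plus strand) 578 and the downstream EIF3A site (chromosome 10, 120794543, minus strand) 663. These 8 sites had at least 10 reads in every subsample, as did 914 sites in all. The upstream EIF3A site (chromosome 10, 120819522) had 117 reads, from 4 to 27 per subsample, and entered none of the main tests. Subsample depth ranged from 65862 to 630986 reads, of which 0.548% to 0.761% lay at the 9 sites. At each level the PABPC1 library was read less deeply, so its tail fits, weighted by reads, carry the wider errors. The main abundance fit had no read weights. Its errors at a site are the same for both libraries and do not allow for the lower PABPC1 depth. EIF4G1 rested on as few as 13 reads in a subsample.

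EIF5A, EIF4G2 and EIF3E had a called trend toward shorter tails over the PABP1212 levels. Their fall was not steady, since EIF4G2 and EIF3E had their shortest medians at the second-highest level. All 8 sites had shorter median tails at the highest PABP1212 level than at the lowest, as had 894 of all 914 sites. With PABPC1 no site passed the test, here or among all 914, and the 8 sites had 4 longer and 4 shorter medians at the highest level than at the lowest, where 175 of all sites were longer and 726 shorter. EIF4A2 had the longest tails of the group in all subsamples but the lowest PABPC1 level, where both EIF1 sites had higher medians.

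**Figure D1:**
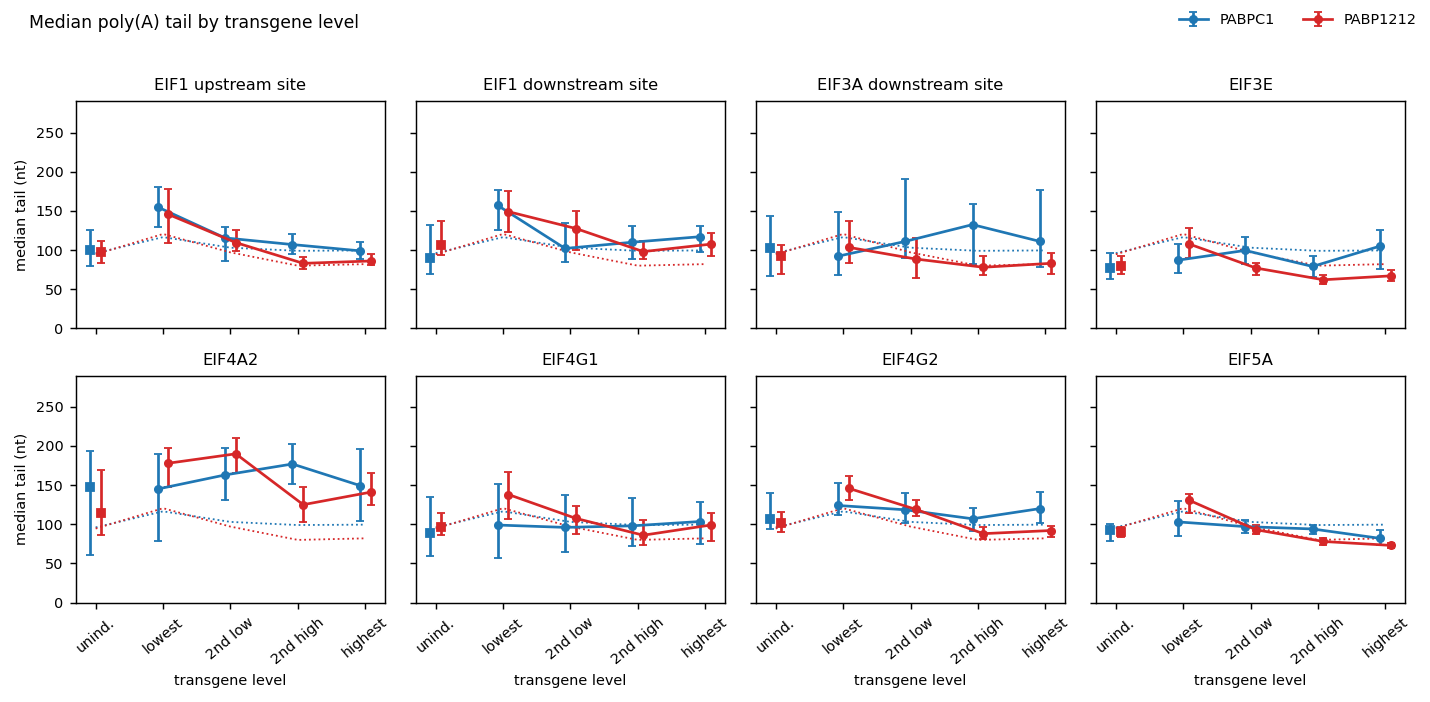
Median tail length in nt (y axis) at each of the 8 sites by transgene level (x axis), for PABPC1 and PABP1212, with exact 95% intervals of the median. Squares are the uninduced subsamples, circles the sorted levels, and the dotted lines the median over 914 sites in each library. EIF4A2 lies between 115 and 190 nt, above the dotted lines throughout.

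Among the scaffolds, EIF4G2 had median tails with PABP1212 of 146 nt at the lowest level (exact 95% interval 131 to 162), 119 nt at the second-lowest, 88 nt at the second-highest and 92 nt at the highest (84 to 98), and of 102 nt in uninduced cells. The intervals of the lowest and the highest level did not overlap. With PABPC1 its medians were 124, 118.5, 107 and 120 nt in rising order of level and 107 nt uninduced, with overlapping intervals. The PABP1212 trend of log2 tail length at EIF4G2 was −0.21 ± 0.05 per level (SE; limma, Benjamini-Hochberg adjusted p = 0.00765). EIF4G1, the scaffold that binds the poly(A)-binding protein, had medians with PABP1212 of 138 nt at the lowest level (107 to 167), 107.5 nt at the second-lowest, 86 nt at the second-highest and 99 nt at the highest (79 to 115), and of 97 nt uninduced. The intervals of the lowest and the highest level overlapped, and its PABP1212 trend was −0.09 ± 0.10 log2 per level (SE; limma adjusted p = 0.441). With PABPC1 the EIF4G1 medians lay between 96 and 103.5 nt at the sorted levels, against 89 nt uninduced.

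EIF4A2, the helicase subunit, stood at the long end of all sites. Its median tails with PABP1212 were 178 nt at the lowest level (147 to 197), 190 nt at the second-lowest (166 to 210), 125 nt at the second-highest and 141 nt at the highest, and 115 nt uninduced. With PABPC1 they were 145, 163, 177 and 149.5 nt in rising order of level and 148 nt uninduced. The highest median was at the second-lowest level with PABP1212 and at the second-highest with PABPC1 (151 to 202), the first with an interval that overlapped that of the lowest level and the second with one that overlapped those of both neighbouring levels. Between 90.2% and 99.9% of the 914 sites had a shorter median than EIF4A2, depending on the subsample. Its PABP1212 trend was −0.12 ± 0.08 log2 per level (SE; limma adjusted p = 0.247).

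The eIF3 subunits lay lower. EIF3E had median tails with PABP1212 of 108 nt at the lowest level (90 to 128), 77 nt at the second-lowest, 62 nt at the second-highest and 67 nt at the highest (60 to 74), and of 80 nt uninduced. Its medians at the upper levels lay below the uninduced one, and its PABP1212 trend was −0.18 ± 0.06 log2 per level (SE; limma adjusted p = 0.0388). With PABPC1 they were 87, 99.5, 79 and 105 nt and 77 nt uninduced, in no order of level. Between 3.61% and 62.3% of the 914 sites had a shorter median than EIF3E, and it lay above the middle of the sites in 1 of 10 subsamples. The downstream EIF3A site had medians with PABP1212 of 103.5, 88.5, 78 and 83 nt in rising order of level and 93 nt uninduced. With PABPC1 the lowest level had its shortest median, 92 nt, against 132.5 nt at the second-highest, on 23 and 40 reads, with overlapping intervals. The EIF3A trends were −0.15 ± 0.08 (SE; limma adjusted p = 0.187) with PABP1212 and 0.03 ± 0.16 (adjusted p = 0.999) with PABPC1.

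EIF5A, the most deeply read site, gave the tightest values. Its median tails with PABP1212 were 131 nt at the lowest level (114 to 139), 93 nt at the second-lowest (87 to 99), 78 nt at the second-highest (74 to 82) and 73 nt at the highest (70 to 76), against 90 nt uninduced (84 to 96). The lowest level lay above uninduced and the upper levels below it, with no overlap of these intervals. Its PABP1212 trend was −0.16 ± 0.04 log2 per level (SE; limma adjusted p = 0.00656). With PABPC1 the medians were 103 nt (85 to 130), 97, 94 and 82 nt (74 to 93) in rising order of level and 93 nt uninduced. That PABPC1 trend was −0.10 ± 0.08 log2 per level and did not pass (SE; limma adjusted p = 0.995).

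EIF1, at both of its sites, had its longest tails at the lowest level of either transgene. At the upstream site the medians with PABPC1 were 155 nt at the lowest level (129 to 181), 115.5 nt at the second-lowest, 107 nt at the second-highest and 99 nt at the highest (89 to 110), and 100 nt uninduced (79 to 126). With PABP1212 they were 145.5, 109.5, 83 and 86 nt and 97 nt uninduced. The lowest PABPC1 level did not overlap the uninduced interval at that site. At the downstream site the medians were 157, 102, 110 and 117 nt with PABPC1, against 89.5 nt uninduced, and 149, 127.5, 98 and 107.5 nt with PABP1212, against 107 nt uninduced. The EIF1 trends with PABP1212, −0.15 ± 0.07 upstream and −0.11 ± 0.07 downstream (SE), did not pass (limma adjusted p = 0.114 and 0.261), nor did those with PABPC1, −0.14 ± 0.12 and −0.13 ± 0.12 (adjusted p = 0.995 for both).

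Over the group, 3 of 8 sites passed for the PABP1212 tail trend, all toward shorter tails, where 15.2% of the 914 sites passed. The median trend was −0.15 log2 per level over the 8 sites and −0.14 over all 914. Of all 914 sites, 33.8%, 24.8% and 14.4% had a lower trend than EIF5A, EIF3E and EIF4G2. With tails of 0 nt left out 4 of 8 passed, where 47.7% of 908 sites did. With the mean tail in nt 4 of 8 passed, where 44.5% of all sites did. With a minimum of 20 reads 3 of 6 passed, where 31.2% of 410 sites did. For PABPC1 0 of 8 passed in limma, as did 0.0% of all sites (15 of the 914, none of them among the 8, at an unadjusted p under 0.05), with medians of −0.05 and −0.08. In nt, the highest minus the lowest PABP1212 level ran from −59.5 nt at the upstream EIF1 site to −20.5 nt at the downstream EIF3A site, with a median of −41.25 nt against −39 nt over all sites. For PABPC1 it ran from −56 nt at the upstream EIF1 site to 19 nt at the downstream EIF3A site, with a median of 0.25 nt against −17 nt over all sites. EIF3A, EIF3E, EIF4A2 and EIF4G1 had the longer medians at the highest PABPC1 level. The difference of the trends between the transgenes passed at 0 of 8 sites and 0.0% of all sites in limma, with estimates from −0.20 ± 0.18 at EIF4A2 to 0.02 ± 0.14 at the downstream EIF1 site. With all subsamples in the fit, a difference between the transgenes was thus not detected at these errors.

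The calls depended on both low levels of PABP1212. Without the lowest or without the second-lowest PABP1212 level 0 of 8 sites passed, where 1.20% and 1.42% of all sites passed. Without the second-highest 5 of 8 passed and without the highest all 8, where 53.6% and 72.8% of all sites passed. The EIF3E call was also lost without the lowest, the second-highest or the highest PABPC1 level, which enter through the shared spread. Without the highest PABP1212 level the trend difference between the transgenes passed at EIF3E and EIF4G2, 2 of 8 sites, where 15.2% of all sites passed. With the median over sites subtracted from each subsample, which removes a shift common to all sites, the trends of EIF4G2, EIF5A and EIF3E were −0.06, −0.04 and −0.03 log2 per level and none passed, where 1.09% of all sites did (limma adjusted p = 0.360, 0.425 and 0.800). Over the 18 alternatives run for each, these were the highest adjusted p in limma, and the lowest were 1.26e-05, 2.25e-06 and 1.73e-06.

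Against uninduced cells, the medians at the lowest PABP1212 level were longer at all 8 sites, by 10.5 nt at the downstream EIF3A site to 63 nt at EIF4A2, with a median of 41.5 nt against 25.75 nt over all sites. At the second-highest PABP1212 level 7 of 8 were shorter, EIF4A2 being the exception, and the median difference was −13 nt against −15 nt over all sites. At the lowest PABPC1 level 6 were longer and 2 shorter (EIF4A2 and the downstream EIF3A site), with a median of 10 nt against 20 nt over all sites. In the limma fit of the mean of all sorted levels against uninduced, 0 of 8 sites passed for either transgene, against 0.0% of all sites, and 0 of 8 at an unadjusted p under 0.05. With PABP1212 that mean joins levels with longer and with shorter tails than uninduced, which offset each other. It therefore cannot decide whether single levels differed from uninduced.

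The shares of short and long tails describe both ends of the distribution at the 3 sites with a called trend. With PABP1212, long tails (150 nt or more) of EIF5A made up 39.5% of its reads at the lowest level, then 22.2%, 15.1% and 12.1%, and 10.5% uninduced. Long tails of EIF4G2 made up 49.0%, 37.5%, 24.3% and 24.2%, and 18.8% uninduced. Short tails (under 30 nt) of EIF4G2 made up 3.09% at the lowest PABP1212 level (Clopper-Pearson 95% interval 1.14 to 6.61), then 7.31%, 10.5% and 13.6% (10.9 to 16.7), and 3.86% uninduced. The intervals of its lowest and highest level did not overlap. Short tails of EIF5A made up 5.85% (3.06 to 10.0), 7.28%, 10.6% (9.11 to 12.3) and 9.51%, and 3.99% uninduced (2.51 to 5.97), so that both upper levels lay above uninduced. Short tails of EIF3E made up 11.8% (7.63 to 17.2), 13.5%, 22.0% (18.3 to 26.1) and 19.9%, and 11.3% uninduced. Long tails of EIF3E made up 34.4% (27.7 to 41.5), 18.2%, 12.1% (9.24 to 15.4) and 13.0%, and 15.9% uninduced. Both ends of the distribution therefore differed at EIF4G2, between the lowest and the highest level. They also did at EIF3E, between the lowest and the second-highest level. At all 3 genes the short share was higher at the second-highest level than at the lowest, with overlapping intervals at EIF5A. Summed over the 9 sites, long tails made up 43.2% of reads at the lowest PABP1212 level (40.1 to 46.3) and 19.2% at the highest (18.0 to 20.5), against 38.9% and 18.3% over all sites. At the lowest PABPC1 level they made up 35.6% (30.8 to 40.6), and 22.0% at the highest (18.9 to 25.4), against 30.4% and 22.4% over all sites. At both lowest levels the interval of the initiation factor sites lay above the share over all sites, of which they are part. It also did at the second-lowest PABP1212 level (28.0 to 32.0, against 26.9%) and at the second-highest PABPC1 level (22.3 to 27.5, against 21.3%). In the remaining subsamples the interval held the share over all sites. Short tails made up 8.54% (6.89 to 10.4) at the lowest PABP1212 level and 14.2% (13.1 to 15.3) at the second-highest, against 7.88% and 14.3% over all sites. These intervals cover counting error only. The sums mix unlike sites. Long tails made up 58.7% of EIF4A2 reads and 34.4% of EIF3E reads at the lowest PABP1212 level, and 63.2% and 18.2% at the second-lowest. At the lowest PABPC1 level they made up 52.3% at the upstream EIF1 site and 22.1% at EIF5A. At the second-highest PABPC1 level they made up 62.7% at EIF4A2 and 9.54% at EIF5A. Whether the sums stay above all sites without EIF4A2 was not tested.

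**Figure D2:**
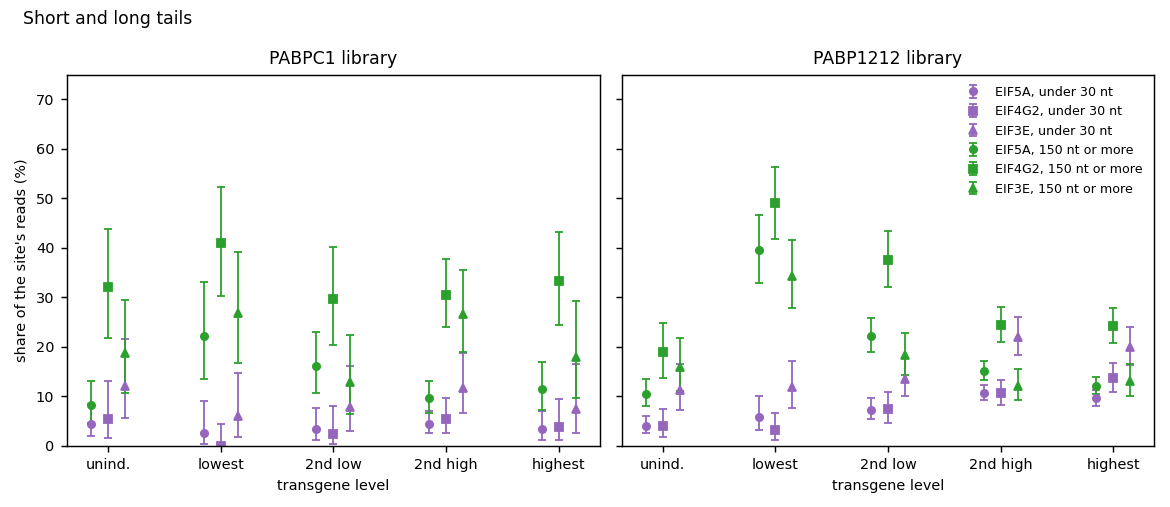
Share of a site's reads in percent (y axis) in short tails (under 30 nt, purple) and long tails (150 nt or more, green) by transgene level (x axis), at EIF5A, EIF4G2 and EIF3E in each library, with Clopper-Pearson 95% intervals. With PABP1212 the long tails of EIF5A lie between 10.5% in uninduced cells and 39.5% at the lowest level.

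With PABP1212, abundance moved in both directions within the group. EIF5A and the upstream EIF1 site took a larger share of reads at higher levels of either transgene, while EIF4A2 and EIF3E took a smaller share at higher PABP1212 levels. Values are CPM, a site's reads scaled to a common library size, after median-ratio scaling between subsamples, tested as log2(CPM + 1) over 801 sites with a mean of at least 50 reads. They are shares of a subsample and give no amount of mRNA per cell.

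EIF5A had 1099, 1470, 1792 and 1806 CPM over the rising PABPC1 levels and 1312, 1887, 2403 and 2497 CPM over the PABP1212 levels. Both uninduced subsamples, at 2899 and 2865 CPM, lay above every sorted level. The trends were 0.24 ± 0.07 log2 per level with PABPC1 and 0.31 ± 0.07 with PABP1212 (SE; limma adjusted p = 0.0353 and 0.00918). The sorted levels together were lower than uninduced by −0.94 ± 0.17 log2 with PABPC1 (limma adjusted p = 0.00163) and by −0.54 ± 0.17 with PABP1212 (adjusted p = 0.0460). The PABP1212 call was lost when subsamples were scaled by total reads (−0.37 log2, limma adjusted p = 0.136), with a range of adjusted p from 0.0114 to 0.154 over 15 alternatives. It was also lost without the lowest or the highest PABP1212 level and without the second-highest or the highest PABPC1 level.

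The upstream EIF1 site followed the same order. It had 628, 809, 974 and 1113 CPM over the rising PABPC1 levels and 615, 830, 977 and 966 CPM over the PABP1212 levels, against 1182 and 1064 CPM uninduced. Its trends were 0.27 ± 0.07 and 0.22 ± 0.07 log2 per level (SE; limma adjusted p = 0.0272 and 0.0376). Scaled by total reads the PABP1212 trend was 0.16 and did not pass (limma adjusted p = 0.101, in a range over 16 alternatives of 0.0108 to 0.920). The downstream EIF1 site had no such order, with 614, 691, 585 and 898 CPM over the PABPC1 levels and 704, 626, 553 and 542 CPM over the PABP1212 levels, and its trends of 0.14 and −0.13 did not pass (limma adjusted p = 0.242 and 0.258).

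EIF3E had 1248, 1086, 721 and 769 CPM over the rising PABP1212 levels and 957, 770, 621 and 654 CPM over the PABPC1 levels, against 1012 and 1182 CPM uninduced. The PABP1212 trend was −0.27 ± 0.08 log2 per level (SE; limma adjusted p = 0.0237), and the PABPC1 trend of −0.20 ± 0.08 did not pass (adjusted p = 0.0922). The sorted PABPC1 levels together were lower than uninduced by −0.68 ± 0.19 log2 (SE; limma adjusted p = 0.0201), a call lost without the second-highest PABPC1 level. EIF4A2 had 666, 434, 369 and 341 CPM over the rising PABP1212 levels, all above the 296 CPM of uninduced cells, and its trend was −0.31 ± 0.09 (SE, log2 per level; limma adjusted p = 0.0201). Over the PABPC1 levels it had 400, 405, 388 and 312 CPM, and a trend of −0.11 ± 0.09 that did not pass (adjusted p = 0.371).

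The scaffolds and the larger eIF3 subunit passed no abundance test with all subsamples in the fit. EIF4G2 lay between 868 and 1242 CPM in all 10 subsamples. EIF4G1 had 186, 178, 233 and 273 CPM over the PABPC1 levels and 275, 268, 239 and 208 CPM over the PABP1212 levels. Its trends, 0.21 ± 0.10 and −0.14 ± 0.10 log2 per level (SE), differed by −0.34 ± 0.14, which did not pass (limma adjusted p = 0.648). The downstream EIF3A site had 207 to 333 CPM at the sorted levels, against 410 and 322 CPM in uninduced cells of the PABPC1 and PABP1212 libraries. Its PABPC1 change from uninduced was −0.67 ± 0.24 log2 (SE; limma adjusted p = 0.0552), and it was called lower without the lowest, the second-lowest or the highest PABPC1 level.

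**Figure D3:**
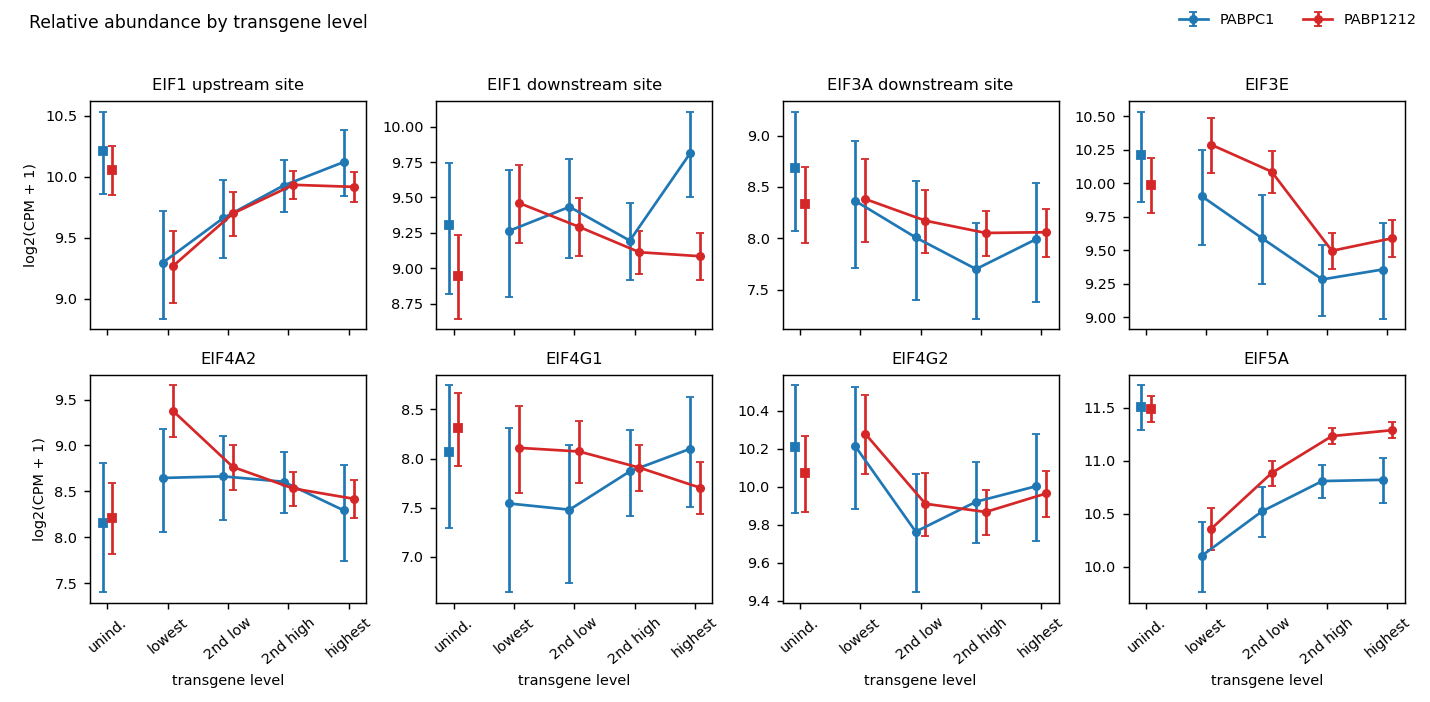
Relative abundance as log2(CPM + 1) (y axis, with its own range in each panel) at the 8 sites by transgene level (x axis), for PABPC1 and PABP1212, with exact Poisson 95% intervals of the read number. Squares are the uninduced subsamples and circles the sorted levels. At EIF5A both uninduced squares, 2899 and 2865 CPM before the log, lie above every sorted level.

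In counts, 2 of 8 sites passed for the PABPC1 abundance trend, both higher, where 13.0% of the 801 sites passed and 9.99% passed as higher. For PABP1212 4 of 8 passed, against 22.2% of all sites, with 2 higher (19.0% of all sites) and 2 lower (3.25%). The median PABP1212 trend was −0.12 log2 per level over the 8 sites and 0.12 over all 801, and with PABPC1 the medians were 0.05 and 0.08. The 801 sites, the 8 among them, were kept by their mean of unscaled reads. The upper PABP1212 levels, the deepest subsamples (630986 and 578987 reads), add most to that mean. Sites with a larger share of reads at those levels were kept more easily, so the 801 are a selected background. For the sorted levels against uninduced, 2 of 8 passed with PABPC1, both lower (25.1% of all sites in either direction, 15.2% lower and 9.86% higher), and 1 of 8 with PABP1212, lower (12.5% and 10.5%). Scaling by total reads moved the median change from uninduced over all 801 sites from −0.21 to −0.04 log2 with PABP1212, so a site's change is relative to the scaling. The difference between the transgenes passed at 0 of 8 sites for the trend (0.0% of all sites), where limma gave EIF4G1 and the downstream EIF1 site an unadjusted p under 0.05 (0.0285 and 0.0328). For the change from uninduced that difference also passed at 0 of 8 sites (0.624% of all sites), with 0 of 8 at an unadjusted p under 0.05.

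The abundance trend calls depended on single levels. Without the lowest PABPC1 level, and also without its second-highest or highest, 0 of 8 PABPC1 trends passed, where 0.749%, 1.87% and 2.12% of all sites passed. Without the lowest PABP1212 level 0 of 8 PABP1212 trends passed, without its second-highest 1 and without its highest 2, where 0.125%, 13.1% and 15.9% of all sites passed. The PABPC1 changes from uninduced numbered 4 of 8 without the second-lowest PABPC1 level and 1 of 8 without the second-highest, where 34.5% and 18.1% of all sites passed. Testing all 4277 sites with a mean of at least 10 reads, which takes in the upstream EIF3A site, left 0 of 9 trends called for either transgene, where 2.13% (PABPC1) and 0.187% (PABP1212) of all sites passed. With voom weights, which allow for read numbers, 0 of 8 PABPC1 trends passed, where 3.25% of all sites passed. For PABP1212 4 of 8 passed with these weights, against 23.8% of all sites. With a mean of at least 100 reads 3 of 5 PABP1212 trends passed, where 40.7% of 356 sites passed.

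**Figure D4:**
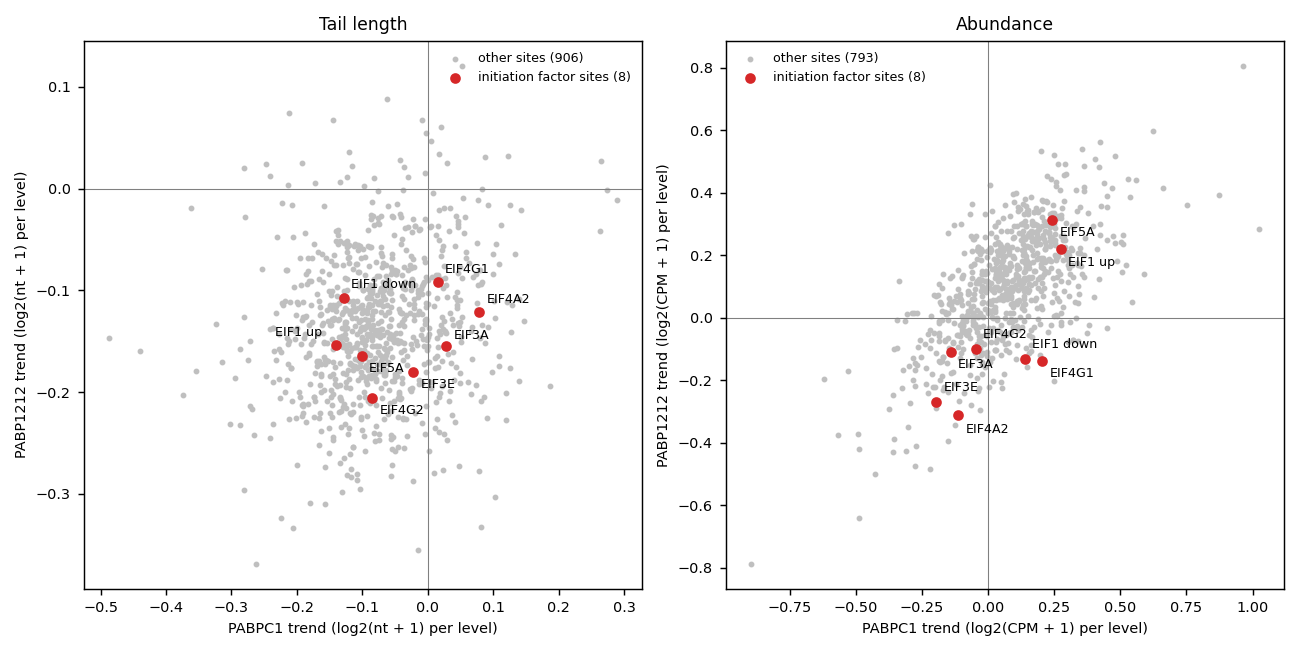
Trend per level with PABPC1 (x axis) and PABP1212 (y axis) for tail length and for abundance, in log2 per level. Red points are the 8 initiation factor sites and grey points the other sites tested. All 8 PABP1212 tail trends lie below 0, from −0.21 at EIF4G2 to −0.09 at EIF4G1, while the PABP1212 abundance trends run from −0.31 at EIF4A2 to 0.31 at EIF5A.

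The EIF1 sites lie 642 nt apart on hg19. The balance between them had a called trend over the PABP1212 levels, with no detected difference from PABPC1. Of the reads at both sites, the upstream one took 46.6% at the lowest PABP1212 level (Clopper-Pearson 95% interval 39.6 to 53.7), 57.0% at the second-lowest (52.3 to 61.6), 63.9% at the second-highest (60.8 to 66.9) and 64.1% at the highest (60.7 to 67.3), against 68.3% uninduced (62.7 to 73.6). The lowest level lay below uninduced and below both upper levels, with no overlap of intervals. With PABPC1 the shares were 50.6% (39.6 to 61.5), 53.9%, 62.5% and 55.3% (48.3 to 62.3), against 65.2% uninduced (55.8 to 73.9), with overlapping intervals throughout. The log2 ratio of upstream to downstream reads, fitted in limma with 205 neighbouring pairs of sites, had a PABP1212 trend of 0.29 ± 0.07 per level (SE; adjusted p = 0.00897), where 1.46% of pairs passed (0.976% for the PABPC1 trend). This pair was chosen after its read numbers were seen. The PABPC1 trend was 0.11 ± 0.12 (limma adjusted p = 0.886), and the difference between the transgenes, 0.18 ± 0.14, did not pass (adjusted p = 0.936). The change of this ratio from uninduced, over all sorted levels together, did not pass with either transgene. It was −0.59 ± 0.21 with PABP1212 (limma adjusted p = 0.210) and −0.51 ± 0.33 with PABPC1 (adjusted p = 0.869). The intervals of the shares cover counting error only.

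The EIF1 ratio lost its call without the PABP1212 lowest level (0.19 log2 per level, limma adjusted p = 0.299), without the PABP1212 second-highest (adjusted p = 0.0925), without the PABPC1 second-lowest (adjusted p = 0.113) and without weights (adjusted p = 0.685). Over its 12 alternatives the limma adjusted p ranged from 0.000250 to 0.685. At the lowest levels the tails of both sites had nearly the same median, 155 and 157 nt with PABPC1 and 145.5 and 149 nt with PABP1212. At the highest levels the upstream site had the shorter median, by −18 nt with PABPC1 and −21.5 nt with PABP1212, which was not tested.

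**Figure D5:**
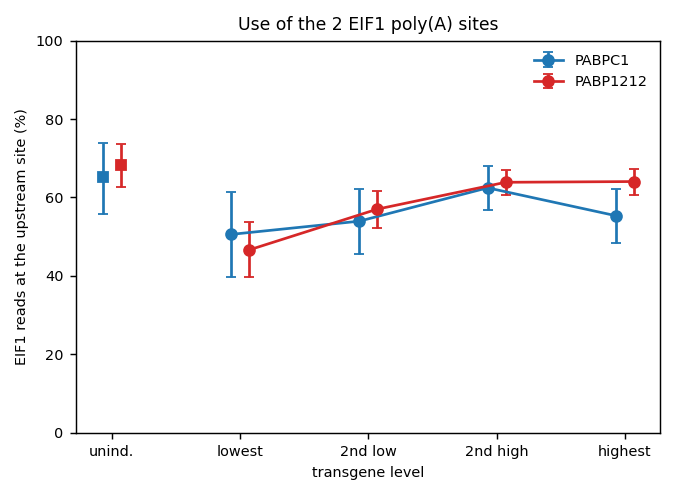
Share in percent (y axis) of the reads at both EIF1 sites that lay at the upstream site, by transgene level (x axis), for PABPC1 and PABP1212, with Clopper-Pearson 95% intervals. Squares are the uninduced subsamples and circles the sorted levels, and the PABP1212 share lies between 46.6% at the lowest level and 68.3% in uninduced cells.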

How the data were processed

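The authors deposited a row per read with its subsample, poly(A) site and tail length. The column name gives no unit of tail length, which was read as nt. Each sorted level joins 3 barcodes and each uninduced subsample has 1, per the deposited barcode table, and the same adapters serve a level in both libraries. The submitters' processing notes list hg38, minimap2 and Bowtie2 without saying versions or what each was for. The last deposited site on chromosome 8 (146281416) lies beyond the last GENCODE version 29 transcript end there (145066685), so positions were read as hg19 and none was converted. For basecaller and tail caller, the name is not given in the sources used here. The files' build had no annotation here, so other initiation factors, and the exon or UTR at each site, were not analysed.

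The initiation factor windows, the gene names and the tests were chosen with earlier results of these data known, and the named genes are those of the windows. Reads were counted per site, and reads whose subsample name is not in the barcode table (2.86% and 5.63% of the libraries) were left out. Tests used limma 3.58.1 (R 4.3.3) with a term for the library and, nested in it, for replacement and for the level's centred rank (4 residual degrees of freedom). P-values measure the scatter around a line over levels, which may be technical, and the single uninduced subsamples are taken to scatter alike. Tail length was the mean of log2(nt + 1) over a site's reads in a subsample, fitted over 914 sites with read numbers as weights. Abundance was log2(CPM + 1), scaled over 5662 sites and fitted with a variance trend and no weights. EIF1 ratios used pairs 500 to 5000 nt apart with a mean of at least 10 reads at both sites and a pseudocount of 0.5. Benjamini-Hochberg adjustment ran over all sites or pairs, with a threshold of 0.05. Intervals of medians are order-statistic intervals. Alternatives were other read minima, scalings, weights and pseudocounts, tails without a log or without the shortest, each library alone, level as a block and each subsample left out. Other steps ran in Python 3.11.15 (pandas 2.3.3, SciPy 1.17.1, NumPy 2.4.6, with figures by Matplotlib 3.10.9).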

Additional observations from a re-analysis of the deposited data

How the results depend on the processing

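No called result changed direction under the alternatives run. Counts of called sites are out of 8, or out of 9 with a mean of 10 reads, 5 with a mean of 100, 6 with a minimum of 20 reads and 7 with the sites of a gene pooled. The PABP1212 tail trend count of 3 was 1 (EIF4G2) without weights and 0 with subsample medians subtracted, and 0 to 8 with a subsample left out. The PABPC1 abundance trend count of 2 was 0 with a mean of 10 reads and 0 with voom weights, and 0 to 2 with a subsample left out. The PABP1212 abundance trend count of 4 was 0 with a mean of 10 reads and 0 to 4 with a subsample left out. The PABP1212 abundance change from uninduced, a count of 1, was 2 (EIF4A2 and EIF5A) with each library alone, 0 with a mean of 10 reads and 0 with scaling by total reads, and 0 to 2 with a subsample left out. The PABPC1 change, a count of 2, was 1 to 4 with a subsample left out. The tail trend difference, a count of 0, was 0 to 2 (EIF3E and EIF4G2 without the PABP1212 highest level). The remaining 6 counts stayed at 0 under every alternative run. The drop in EIF5A abundance from uninduced with PABPC1 was kept under 15 of 15 alternatives, and the EIF4G2, EIF5A and EIF3E tail trends under 15, 14 and 10 of 18. The EIF1 ratio trend, whose alternatives were chosen after seeing the data, was kept under 8 of 12. For calls that were lost, the cause was not tested. No paired analysis was possible because the labels carry no replicate numbers, in the sense of paired replicates. The levels themselves are shared by the libraries, and with level as a block (chosen after seeing the data, 2 residual degrees of freedom) the differences between the transgenes in trend and in change from uninduced again passed at 0 of 8 sites, for tails and for abundance. At an unadjusted p under 0.05 in limma these were 2 and 0 of 8 for tails and 2 and 2 of 8 for abundance. Over all sites 0.109% and 0.0% passed for tails and 1.75% and 5.12% for abundance. Depth limits EIF4G1, EIF4A2 and EIF3A most, with 13 to 23 reads in their shallowest subsample.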

Other observations

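The upstream EIF3A site carried almost no tails. Of its 117 reads, 115 (98.3%) had a tail under 30 nt and 65 (55.6%) a tail of exactly 0 nt, and its median was 0 to 8 nt in every subsample. The downstream EIF3A site had 13.3% of reads under 30 nt and 1.66% at 0 nt. The upstream site lay 24979 nt before the downstream one on the minus strand, inside the EIF3A window, and the nearest distance between 2 annotated EIF3A ends was 23206 nt. Of the 4277 sites with a mean of at least 10 reads, 8 (0.187%) had at least 90% of their tails under 30 nt, the upstream EIF3A site among them, and the median site had 9.65%. How these reads arose was not tested.

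The tail profile of EIF5A over the 10 subsamples was most like those of 2 sites outside the windows, on chromosome 19 at 49470136 of the plus strand (Pearson r = 0.989) and on chromosome 11 at 61732002 of the minus strand (r = 0.981). Of the other initiation factor sites, the upstream EIF1 site had r = 0.903, EIF4G2 0.882, EIF4G1 0.853, the downstream EIF1 site 0.827 and EIF3E 0.813. EIF3A and EIF4A2 stood lower, at 0.389 and 0.356. The median over 906 other sites was 0.778. All sites share the subsamples and their depth, so these values are descriptions only. Reads with a subsample name outside the barcode table numbered 93 and 715 at the initiation factor sites in the PABPC1 and PABP1212 libraries, 0.591% and 0.643% of such reads, with median tails of 111 and 82 nt.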
